A study of Arabidopsis thaliana with 16 samples.

Results

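The pericentromere of Arabidopsis chromosome 3, the repeat-rich DNA that flanks the centromere, was followed through 73 loci. The loci were chosen by id, from AT3G30000 to AT3G42999, without AT3G30720 and AT3G42670, and were selected on seedling values: each had a signal of at least 1 in 2 or more of the 8 seedling libraries. Signal is the authors' value per locus, read from its form as a read count adjusted to a common library size and not divided by locus length. The seedling table held 32833 loci, of which 25016 met the same threshold, and 133 loci of the id range, of which 58 fell under the threshold and 42 of these were at 0 in all 8 seedling libraries. The RefSeq annotation of TAIR10.1 lists 713 loci in the id range, and the 580 of them annotated as pseudogenes were not analysed here. All 73 members are annotated as protein-coding.

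The label of the set was checked against position. The members other than AT3G36659 lie between 11797730 and 15031152 on chromosome 3, and 506962 bases between 13530098 and 14037060 hold no member. AT3G36659, a predicted pectin methylesterase inhibitor, lies at chr3:2100021-2101402, far outside the span of the others, so its id is out of order with its position. It was kept because the rule goes by id. Its signal was 1.197 and 1.56 in the WT seedling libraries.

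RNA was measured by mRNA sequencing in 8 groups of 2 libraries. Seedlings 2 weeks old were wild type (WT), tcx5-/-tcx6-/- (called tcx5/6 here), ddm1-/- (ddm1) or carried all 3 mutations (tcx5/6 ddm1), and leaf (1 month old) and shoot apical meristem (SAM, no age given) libraries were WT or tcx5/6. Plants were on MS plates at 22 °C with 16 h of light and 8 h of dark, and the labels give neither the alleles, nor the generation in which ddm1 was homozygous, nor whether the 2 libraries of a group came from separate plantings. P-values therefore measure only the spread between these libraries.

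Heterochromatin next to plant centromeres is packed with transposable elements and their relics, which are held silent by DNA methylation and by histone H3 lysine 9 methylation. DDM1 is a chromatin remodeller that lets the methyltransferases reach this DNA, and plants without it lose methylation and transcribe elements that are otherwise silent. The plant DREAM complex, to which the cysteine-rich proteins TCX5 and TCX6 belong, holds down genes of the cell cycle and of DNA methylation maintenance. The region also holds ordinary genes, such as those for a vacuolar proton pump subunit or a brassinosteroid enzyme, that are transcribed amid the repeats.

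The libraries differed in ways that bear on the seedling comparisons. Total signal per library was 31.1 M to 38.8 M in seedlings and 45.4 M to 59.3 M in leaf and SAM (M, mega), and the members held 0.139% to 0.159% and 0.114% to 0.123% of it. The deposited table held no locus at exactly 0 in any WT or tcx5/6 seedling library and 653 to 1172 such loci in each ddm1 or tcx5/6 ddm1 library, so a missing DDM1 and this unlike handling of zeros cannot be told apart in any comparison across it. The DDM1 transcript (AT5G66750) was at 709 and 648 in WT. It was highest in tcx5/6 (1925 and 2061) and lowest in ddm1 (119 and 145). The tcx5/6 ddm1 libraries (569 and 654) overlapped WT and lay below tcx5/6. The log2 change was -1.71 against tcx5/6, beside -2.36 for ddm1 against WT. A transcript level alone does not tell whether DDM1 is lost, so this group is named here by its label alone. TCX5 (AT4G29000) was at 486 and 497 in WT seedlings and at 240 and 267 in tcx5/6. TCX6 (AT2G20110) was higher in tcx5/6 libraries, at 783 and 760 against 163 and 152, which goes against its label as a plain loss of transcript. The sources used here do not say which part of each transcript is disrupted.

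Tissue markers were read beside the members. The meristem genes STM, KNAT1, WUS and CLV3 summed to 3048 to 3120 in WT SAM and to 6.79 to 19.0 in WT leaf, where STM, WUS and CLV3 were at 0. CLV3 was at 0 in both WT SAM libraries as well. The photosynthesis genes RBCS1A, CAB3 and RCA summed to 573492 to 579016 in WT SAM, above the 183386 to 186639 of WT leaf. In bulk RNA, fewer cells of a type and less RNA per cell cannot be told apart.

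The 73 loci fell into a silent and a transcribed part. In WT seedlings 41 members had at least 1 in both libraries, 30 were at 0 in both and 2 were neither. Of the silent ones, 27 were at 0 in all 4 WT and tcx5/6 seedling libraries, and 25 of these 27 were also at 0 in all 8 leaf and SAM libraries. Both exceptions were low: AT3G30840 was at 2.10 and 0.0232 in WT leaf, and AT3G42060 at 0.0303 and 1.097 in tcx5/6 leaf. The 27 loci entered the set only through ddm1 and tcx5/6 ddm1 libraries, so their difference from WT was fixed by the choice and is described with no test.

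**Figure D1:**
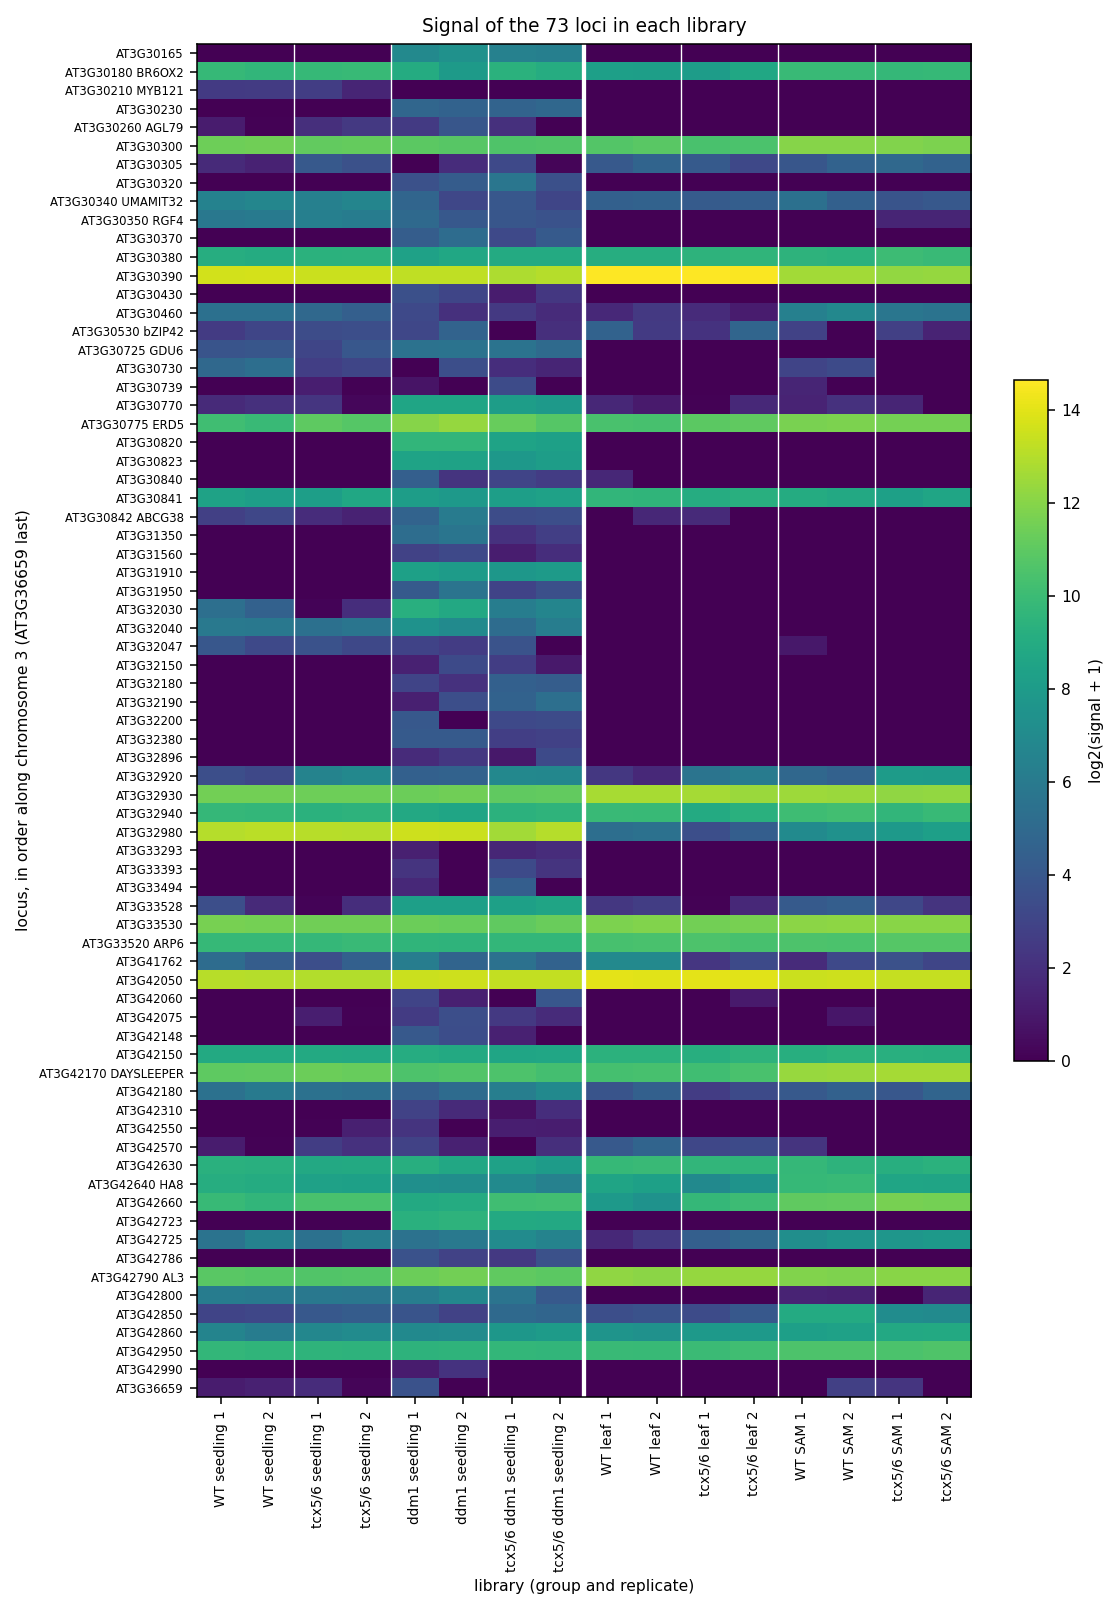
Signal of the 73 loci (rows, in order along chromosome 3, with AT3G36659 last) in the 16 libraries (columns, 2 per group) as log2(signal + 1). The 27 loci at 0 in WT and tcx5/6 seedlings are dark there and have signal in ddm1 or tcx5/6 ddm1 seedling columns. Of the 27, 23 reached 1 in both ddm1 libraries and 20 in both tcx5/6 ddm1 libraries. AT3G30770 and AT3G33528, low in WT and not among the 27, also light up in these columns.

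In ddm1 seedlings 5 of the 27 carried most of the signal. AT3G30820, annotated as a retrotransposon ORF-1 protein, was at 782 and 787 in the ddm1 libraries and at 366 and 316 in tcx5/6 ddm1. AT3G42723, whose product is named as an ATP-binding protein related to aminoacyl-tRNA ligases, was at 638 and 721 in ddm1 and at 469 and 463 in tcx5/6 ddm1. All 4 libraries of either locus stood far above the 0 of WT and tcx5/6 seedlings. The annotation of both holds words used for transposons. This was so for 7 members, the others being AT3G30370, AT3G32380, AT3G30770, AT3G42860 and AT3G42170. AT3G30823, an uncharacterized protein, was at 366 and 348 in ddm1 and at 224 and 285 in tcx5/6 ddm1. AT3G31910, of the Ulp1 protease family, whose domain is also carried by some plant transposons, was at 324 and 266 in ddm1 and at 218 and 254 in tcx5/6 ddm1. AT3G30165, a zinc ion-binding protein, was at 116 and 172 in ddm1 and at 84.1 and 79.5 in tcx5/6 ddm1. Together these 5 held 90.1% and 89.7% of the signal of the 27 loci in the ddm1 libraries and 86.7% and 87.3% in the tcx5/6 ddm1 libraries.

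**Figure D2:**
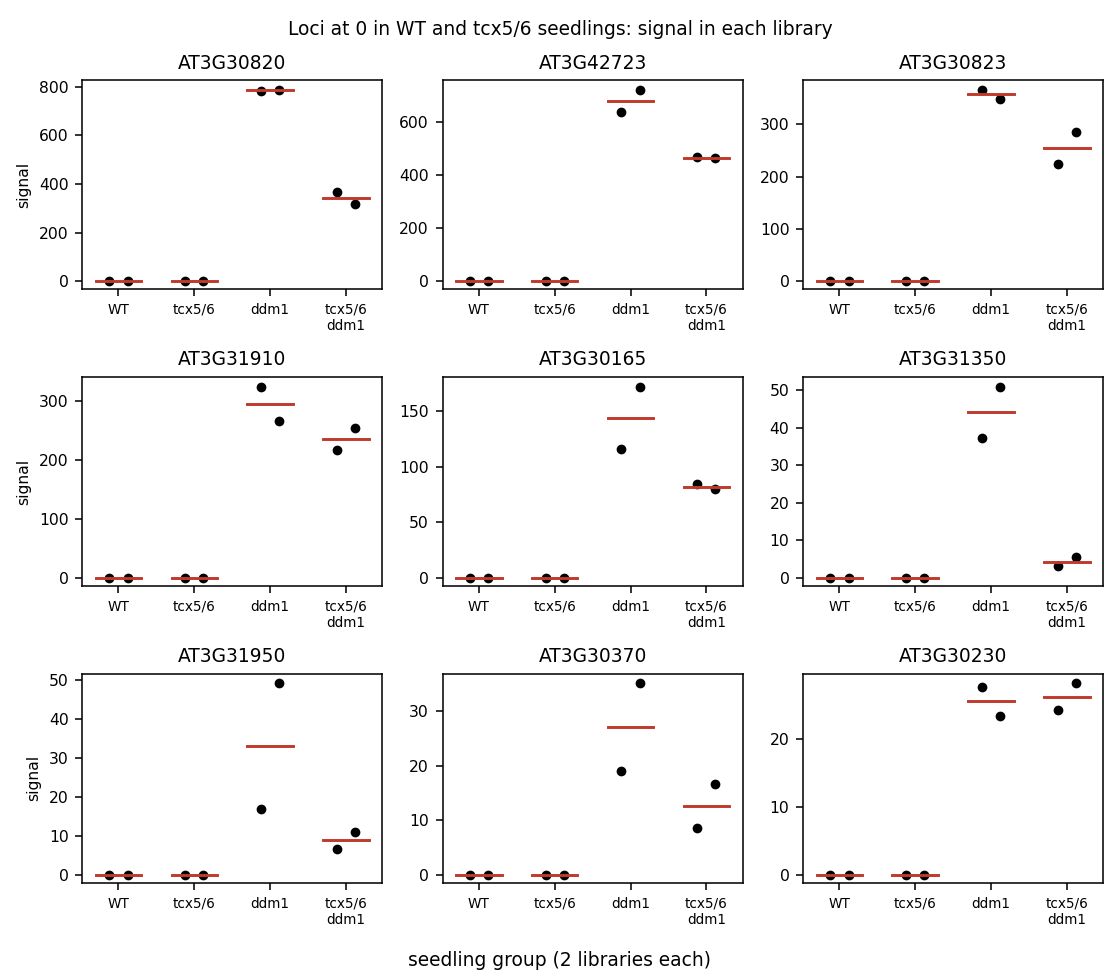
Signal (linear axis) in each seedling library of the 9 loci with the highest ddm1 mean among those at 0 in WT and tcx5/6 seedlings. Points are the 2 libraries of a group and red bars their mean; AT3G31350 was at 37.3 and 50.9 in ddm1 and at 3.31 and 5.48 in tcx5/6 ddm1.

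Some values of these loci may hold reads of other copies. Of the distinct 31-base words in the exons of AT3G30823, 49.6% occur elsewhere in the TAIR10.1 genome, against 0% for AT3G30820 and AT3G31910, 3.17% for AT3G42723 and 5.95% for AT3G30165. AT3G30823 overlaps AT3G06115 and AT3G31910 overlaps AT3G31915 on the other strand, and the strand setting of the counting is not given, so reads of either pair cannot be told apart. Over the 27 loci the repeated share had a median of 5.02% and reached 70.8%, and 8 loci were above 20%. Over the 41 transcribed loci its median was 0% and 3 were above 20%.

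The other 22 of the 27 were low. The mean in ddm1 had a median of 9.19 over the 27 loci and was under 20 in 18 of them. Each of the 7 members annotated as myosin heavy chain-like proteins was at 0 in WT and tcx5/6 seedlings. The strongest of the 7, AT3G30230, was at 27.7 and 23.4 in ddm1 and at 24.2 and 28.2 in tcx5/6 ddm1. AT3G30370, a MuDR family transposase that moves DNA by cutting and pasting, was at 19.0 and 35.0 in ddm1 and at 8.53 and 16.6 in tcx5/6 ddm1. AT3G32380, annotated as a Gag-Pol retrotransposon polyprotein, was at 16.7 and 16.8 in ddm1 and at 5.54 and 5.99 in tcx5/6 ddm1. AT3G31950, a nucleic acid-binding and zinc ion-binding protein, was at 16.9 and 49.0 in ddm1 and at 6.67 and 10.97 in tcx5/6 ddm1. For these 4 loci the ddm1 and tcx5/6 ddm1 libraries all lay above 0.

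At the threshold the values were low. Just inside it, the second-highest seedling value was 1.14 for AT3G42990, 1.31 for AT3G30739 and 1.41 for AT3G42550. Just outside, it was 0.699 for AT3G30805, 0.621 for AT3G30235 and 0.0665 for AT3G30580.

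The sequences upstream of 4 loci are shown because the loci move in different ways: AT3G30820, AT3G30165 and AT3G30230 are silent outside ddm1, and AT3G42660 is transcribed in all 16 libraries and higher in tcx5/6. Each is the 250 bases before the annotated start in RefSeq TAIR10.1, read 5′ to 3′ on the strand of the gene, with CG sites, where DDM1-dependent methylation can sit, in capitals. The windows are chr3:12529593-12529842 (plus strand), chr3:11798192-11798441 (minus), chr3:11881789-11882038 (minus) and chr3:14751030-14751279 (plus).
AT3G30820: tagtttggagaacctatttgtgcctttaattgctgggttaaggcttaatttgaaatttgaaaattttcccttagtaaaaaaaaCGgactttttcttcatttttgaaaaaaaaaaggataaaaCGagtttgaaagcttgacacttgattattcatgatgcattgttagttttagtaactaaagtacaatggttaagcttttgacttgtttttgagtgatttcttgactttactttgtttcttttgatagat
AT3G30165: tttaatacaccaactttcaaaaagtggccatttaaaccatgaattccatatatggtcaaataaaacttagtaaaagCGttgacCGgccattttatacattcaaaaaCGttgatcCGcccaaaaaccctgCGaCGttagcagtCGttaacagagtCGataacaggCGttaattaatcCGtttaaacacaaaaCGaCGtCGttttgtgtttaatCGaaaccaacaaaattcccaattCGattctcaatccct
AT3G30230: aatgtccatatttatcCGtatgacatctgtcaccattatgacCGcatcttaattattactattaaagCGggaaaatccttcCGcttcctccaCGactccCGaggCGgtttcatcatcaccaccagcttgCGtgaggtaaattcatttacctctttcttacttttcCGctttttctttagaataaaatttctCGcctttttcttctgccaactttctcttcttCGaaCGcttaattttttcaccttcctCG
AT3G42660: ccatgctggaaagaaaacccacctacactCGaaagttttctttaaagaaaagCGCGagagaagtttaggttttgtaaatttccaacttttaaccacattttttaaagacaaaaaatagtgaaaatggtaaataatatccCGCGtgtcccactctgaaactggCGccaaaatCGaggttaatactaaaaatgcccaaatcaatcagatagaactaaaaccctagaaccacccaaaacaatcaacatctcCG
The window of AT3G30820 holds 2 CG sites, that of AT3G30165 holds 15, that of AT3G30230 holds 13 and that of AT3G42660 holds 8.

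Over the 27 silent loci the upstream windows had a median of 7 CG sites and 37.2% GC, against 4 sites and 30% over the 41 transcribed loci and 5 sites and 31.2% over 27443 protein-coding loci of the genome. The ranges overlapped, from 0 to 21 sites in the silent loci and from 0 to 16 in the transcribed ones. Silent loci were also shorter, with a median of 501 exon bases in 3 exons against 1567 bases in 5 exons. The median number of pseudogenes within 50 kb was 17 for silent and 18 for transcribed loci, with ranges of 8 to 24 and 0 to 23. The 0 is that of AT3G36659, which lies far outside the span of the others, and the next lowest transcribed locus, AT3G30305, had 8. The exact letters TTTCCCGC, an E2F-type motif, were found on either strand in 1 member window, that of AT3G30230, and in 0.62% of all windows. Other forms of the E2F site were not searched, so a window without these letters may still hold one. TTTGAA, a CHR-type motif, was in 25 of the 73 windows and in 38.8% of all windows, and the letters of the 2 motifs cannot overlap on either strand. These matches are a description of the letters only.

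**Figure D3:**
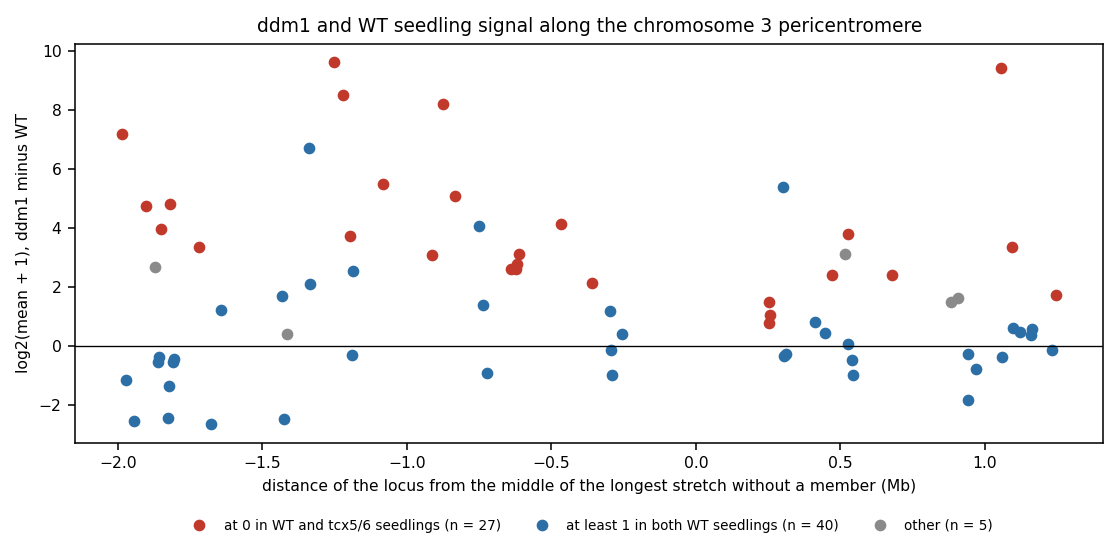
Difference between ddm1 and WT seedlings in log2(mean signal + 1) for 72 members (AT3G36659 left out), against distance in Mb from the middle of the longest stretch without a member. Red points are the 27 loci at 0 in WT and tcx5/6 seedlings, blue the 40 with at least 1 in both WT libraries and grey the other 5; red points stand on both sides, 18 at negative and 9 at positive distance.

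Silent and transcribed loci were interleaved along the chromosome, as the plot by distance shows. The median distance from the middle of the longest empty stretch was 0.874 Mb for the 27 silent loci and 1.11 Mb for the transcribed ones, with ranges of 0.254 to 1.99 Mb and 0.256 to 1.97 Mb. AT3G30770, near silent in WT, and ERD5, transcribed in all 16 libraries, lie 0.35 kb apart.

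Across all 73 members, limma-trend (the fit is described under the processing) called 33 higher in ddm1 than in WT seedlings, beside 26.3% of all 25016 loci tested, and 15 lower, beside 23.3%. The median log2 change was 1.11, against 0 for all loci. These counts follow in part from the rule, which took in 30 members only through ddm1 and tcx5/6 ddm1 libraries, and nothing is read from them. For comparison, the 174 loci of the chromosome 5 pericentromere (AT5G28000 to AT5G35999) chosen by the same threshold gave 57 higher, 42 lower and a median of 0.14, and the 4734 loci of the chromosome 3 arms gave 1242 higher, 1100 lower and a median of -0.01.

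The 41 members transcribed in WT seedlings met the threshold through WT itself. Of these 11 (26.8%) were called higher in ddm1, beside 26.3% of all loci, and 15 (36.6%) lower, beside 23.3%. The 41 were chosen on these WT values and all loci were not, so the shares are unlike and nothing is read from them. AT3G30770, an aspartyl protease of a family that includes retroviral-type proteases, was at 2.38 and 3.08 in WT and at 382 and 396 in ddm1, a log2 change of 6.71 ± 0.59 (SE, adjusted p = 3.67e-05). AT3G33528, an uncharacterized protein, was at 10.3 and 2.37 in WT and at 303 and 311 in ddm1, a log2 change of 5.64 ± 0.68 (adjusted p = 0.000223). Both ddm1 libraries of either locus lay far above the WT libraries. Of the exon words of AT3G33528, 30.8% occur elsewhere in the genome.

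A terpenoid cyclase and a terpenoid synthase gene, 12.2 kb apart, also rose in ddm1. Terpene synthases build the carbon skeletons of volatile defence compounds. AT3G32030 was at 39.3 and 22.0 in WT and at 615 and 449 in ddm1, a log2 change of 4.11 ± 0.58 (adjusted p = 0.000517). AT3G32040 was at 59.7 and 56.6 in WT and at 178 and 129 in ddm1, a log2 change of 1.37 ± 0.38 (adjusted p = 0.0161, and 0.067, 0.079 and 0.08 without WT replicate 1, WT replicate 2 and ddm1 replicate 1). Both were at 0 in all 8 leaf and SAM libraries. Repeated words made up 36.7% of the exons of AT3G32030 and 9.79% of those of AT3G32040.

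Genes of known function rose as well. ERD5 (AT3G30775, proline dehydrogenase, which starts the breakdown of proline) was at 1135 and 960 in WT and at 4045 and 5069 in ddm1, a log2 change of 2.12 ± 0.17 (adjusted p = 2.47e-05). GDU6 (AT3G30725), a membrane protein of the glutamine dumper family, was at 12.9 and 13.98 in WT and at 45.3 and 47.2 in ddm1 (log2 change 1.71 ± 0.42, adjusted p = 0.00943, and 0.055 without WT replicate 1). AL3 (AT3G42790), an alfin-like PHD-finger protein that reads histone H3 tails, rose by 0.60 ± 0.08 (adjusted p = 0.00043) from 1901 and 1736 to 2625 and 2907. The vacuolar ATPase subunit H gene AT3G42050, part of the pump that acidifies the vacuole, rose by 0.43 ± 0.06 (adjusted p = 0.000469) from 8694 and 8413 to 11352 and 11738. In all 4 genes the WT and ddm1 libraries did not overlap. AGL79 (AT3G30260), a MADS-box transcription factor gene, was at 1.15 and 0.0665 in WT and at 4.69 and 13.8 in ddm1 (2.60 ± 0.82, adjusted p = 0.0289), a call lost when WT replicate 1 (0.056), the other WT library (0.16) or ddm1 replicate 2 (0.15) was left out.

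HA8 (AT3G42640), a plasma membrane proton pump, fell from 547 and 506 in WT to 155 and 145 in ddm1, a log2 change of -1.80 ± 0.19 (adjusted p = 0.000107). AT3G30460, a RING-type ubiquitin ligase gene, fell from 42.1 and 40.8 to 8.44 and 3.16 (log2 change -2.76 ± 0.52, adjusted p = 0.00257). UMAMIT32 (AT3G30340), of a family of amino acid exporters, fell from 89.3 and 104 to 26.1 and 7.83 (log2 change -2.65 ± 0.55, adjusted p = 0.00418). BR6OX2 (AT3G30180), the cytochrome P450 that makes brassinolide, fell from 891 and 804 to 508 and 254 (log2 change -1.23 ± 0.27, adjusted p = 0.00554). AT3G32940, an RNA-binding KH-domain gene, fell by 0.98 ± 0.11 on the log2 scale (adjusted p = 0.000113). MYB121 (AT3G30210), a MYB transcription factor gene, was at 4.70 and 4.73 in WT and at 0 in both ddm1 libraries (adjusted p = 0.0071).

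Other falls were smaller or rested on single libraries. DAYSLEEPER (AT3G42170), a host protein derived from a hAT transposase and needed for development, fell from 2089 and 2187 to 1485 and 1604 (log2 change -0.47 ± 0.10, adjusted p = 0.00376). ARP6 (AT3G33520), a subunit of the SWR1 complex that deposits histone H2A.Z, was called lower by 0.26 ± 0.08 (adjusted p = 0.024), but not when WT replicate 1 (0.094), the other WT library (0.1) or ddm1 replicate 2 (0.085) was left out. RGF4 (AT3G30350), a root meristem growth factor peptide gene, was called lower by 1.42 ± 0.39 (adjusted p = 0.016), but not without those same libraries in turn (0.066, 0.089 and 0.055). AT3G30730, an uncharacterized protein, was at 29.5 and 38.2 in WT and at 0 and 10.6 in ddm1 (adjusted p = 0.0216, and 0.077 and 0.1 without WT replicates 1 and 2). In the same libraries the meristem genes summed to 527 to 570 in WT and 90.2 to 154 in ddm1, with WUS at 0 in both groups. The photosynthesis genes summed to 959585 to 1000500 and 837906 to 847372, but did not move together. CAB3 rose from 199826 and 215835 to 335534 and 311428. RCA fell from 339253 and 350797 to 129877 and 141809, and RBCS1A from 420506 and 433868 to 372495 and 394136. The part of these marker genes in the falls was not tested. The seed storage genes CRC and CRA1 summed to 1485 in ddm1 replicate 1 and to 25.2 in ddm1 replicate 2, against 20.7 to 24.5 in WT.

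The levels of the transcribed members in WT seedlings spanned a wide range when expressed per kb of exon. The peroxidase gene AT3G32980 had 5621 per kb and AT3G30390, an amino acid transporter gene, 5452 per kb, and AT3G42050 followed at 4081 per kb. Next were AT3G32930, annotated as lumazine synthase of riboflavin synthesis, at 2640 per kb, AL3 at 1561, AT3G30300, an O-fucosyltransferase family gene, at 1057, DAYSLEEPER at 869 and the WD-40 repeat gene AT3G33530 at 721. Per library, AT3G32980 was at 8445 and 8879 and AT3G30390 at 12768 and 13323. AT3G30390, AT3G32930 and AT3G33530 overlap a neighbour on the other strand.

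Of the 73 members 3 were called higher in tcx5/6 than in WT seedlings, beside 7.26% of all loci, and 2 lower, beside 4.35%. The 27 silent loci are at 0 in both groups by definition. All calls fell among the 41 members transcribed in WT, where the shares were 7.32% higher and 4.88% lower. The 41 were chosen on the WT values of this comparison and all loci were not, so nothing is read from those shares. The median log2 change was 0 for the 73 members and for all loci, and -0.16 for the 41. With the fit restricted to WT and tcx5/6 libraries 13 members were called, and with a minimum log2 change of 1 there were 2. The shares of all loci in these 2 settings are not given, so nothing is read from those counts. In tcx5/6 the list of 31 silencing genes had 16 called higher and 0 lower, at a median log2 change of 0.46. The list holds DDM1, MET1, CMT3 and the VIM genes, which maintain DNA methylation. It also holds ROS1 and IBM1, demethylase genes that act against silencing marks, and both were among the 16. In ddm1 against WT the same list had 2 higher and 18 lower (median -0.52), beside 26.3% and 23.3% of all loci. DDM1 itself and ROS1 were among the 18, and IBM1 was 1 of the 2. In tcx5/6 leaf the list had 15 higher and 8 lower (0.43), beside 21.3% and 21.4% of all loci. In tcx5/6 SAM it had 16 higher and 1 lower (0.34), beside 15.6% and 14.5%. The meristem genes summed to 527 to 570 in WT and 723 to 733 in tcx5/6 seedlings and the photosynthesis genes to 959585 to 1000500 and 747756 to 794959; their part in the seedling differences was not tested.

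AT3G32920 and AT3G42660 rose in tcx5/6 seedlings, leaf and SAM. AT3G32920, at chr3:13484403-13489243 and annotated as a P-loop ATPase of the type found in DNA repair proteins, was at 10.5 and 8.13 in WT seedlings and at 91.2 and 113 in tcx5/6, a log2 change of 3.33 ± 0.31 (adjusted p = 0.000373). It went from 4.23 and 2.23 to 48.2 and 67.5 in leaf (3.82 ± 0.35, adjusted p = 0.000216) and from 28.9 and 22.2 to 260 and 253 in SAM (3.29 ± 0.35, adjusted p = 0.000551). No tcx5/6 library overlapped a WT library of its tissue. Repeated words made up 12.9% of its exons, and it overlaps AT3G32925 in part.

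AT3G42660, a WD-40 repeat gene at chr3:14751280-14755701 with no repeated exon words, was at 921 and 800 in WT seedlings and at 1411 and 1374 in tcx5/6 (log2 change 0.70 ± 0.09, adjusted p = 0.00203). In leaf it went from 236 and 177 to 857 and 1038 (2.2 ± 0.14, adjusted p = 5.43e-05). In SAM it went from 2187 and 2268 to 3224 and 3117 (0.51 ± 0.14, adjusted p = 0.036), a call lost without any 1 of the 4 SAM libraries (adjusted p 0.13 to 0.17). The WT levels ran from leaf through seedling to SAM, the 2 tables being normalised separately.

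**Figure D4:**
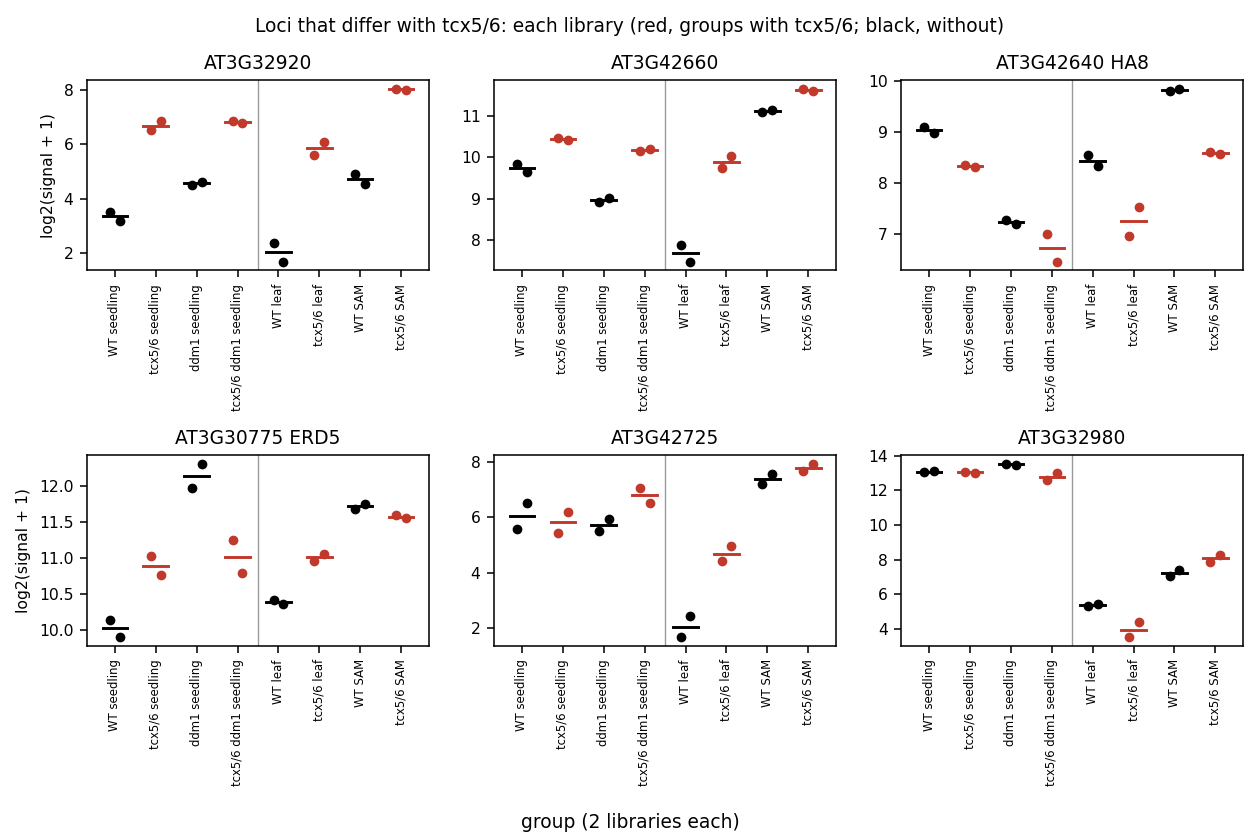
Log2(signal + 1) of 6 members in each library, with seedling groups left of the grey line and leaf and SAM groups right of it (the 2 tables were normalised separately). Points are libraries, bars group means, red the groups with tcx5/6; AT3G32920 and AT3G42660 are higher and HA8 is lower in tcx5/6 than in WT in each tissue, the seedling difference of HA8 having an adjusted p above 0.05.

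ERD5 rose in tcx5/6 seedlings to 2086 and 1739 (log2 change 0.87 ± 0.17, adjusted p = 0.0155, and 0.14 without WT replicate 2 and 0.13 without tcx5/6 replicate 1) and in tcx5/6 leaf from 1372 and 1323 to 1995 and 2135 (0.62 ± 0.05, adjusted p = 0.000158). The SAM libraries, 3299 and 3458 for WT against 3093 and 3014 for tcx5/6, gave no call (adjusted p = 0.0801). The terpenoid cyclase gene AT3G32030 fell in tcx5/6 seedlings to 0.104 and 2.77 (-3.90 ± 0.58, adjusted p = 0.00395). AT3G30300 was called lower by 0.27 ± 0.06 (adjusted p = 0.0277), but not without any 1 of the 4 WT and tcx5/6 seedling libraries (0.13 to 0.2).

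Leaf and SAM values did not enter the rule. There 37 members met the threshold of the test, 36 of them transcribed in WT seedlings, and 31 of the 36 that were not tested were at 0 in all 8 libraries. Besides the terpenoid pair, GDU6 and MYB121 were transcribed in WT seedlings and at 0 in every leaf and SAM library. The 27 silent loci gave no tested member in either tissue.

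In leaf, 7 members were called higher in tcx5/6 than in WT, beside 21.3% of all 24429 loci tested, and 7 lower, beside 21.4%, so the shares of the 37 members (18.9% each way) were near the background. The count of 14 fell to 9 without WT leaf replicate 2. Besides AT3G32920, AT3G42660 and ERD5, AT3G42725, a putative membrane lipoprotein gene, rose from 2.17 and 4.33 to 20.4 and 29.8 (2.65 ± 0.36, adjusted p = 0.00119). AT3G30380, an alpha/beta-hydrolase gene that overlaps AT3G30390, rose from 563 and 553 to 704 and 769 (0.40 ± 0.08, adjusted p = 0.00779).

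The leaf falls were led by AT3G41762, an uncharacterized protein, from 116 and 117 in WT to 4.001 and 8.79 in tcx5/6 (-4.07 ± 0.57, adjusted p = 0.00136). That locus shares 79.5% of its exon words with other places in the genome and overlaps 3 other annotated loci, so its value is uncertain. HA8 fell from 372 and 323 to 124 and 185 (-1.19 ± 0.19, adjusted p = 0.00224) and AT3G32940 from 979 and 917 to 492 and 635 (-0.76 ± 0.14, adjusted p = 0.00395). AT3G32980, the peroxidase gene, fell from 38.4 and 42.5 to 10.5 and 19.8 (-1.42 ± 0.34, adjusted p = 0.0132, and 0.058 without WT leaf replicate 2). AT3G30841, a phosphoglycerate mutase gene of glycolysis, was called lower by 0.48 ± 0.13 (adjusted p = 0.0203), but not without WT replicate 1 (0.093), WT replicate 2 (0.058) or tcx5/6 replicate 1 (0.083).

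In SAM, 6 of the 37 tested members (16.2%) were called higher in tcx5/6, beside 15.6% of all loci, and 8 (21.6%) lower, beside 14.5%. The count of 14 fell to 5, 9, 7 and 8 without WT replicates 1 and 2 and tcx5/6 replicates 1 and 2. Next to AT3G32920, AT3G30380 rose from 717 and 663 to 1062 and 979 (0.56 ± 0.08, adjusted p = 0.00244). AT3G42860, a zinc-knuckle gene, rose from 307 and 337 to 453 and 481 (0.53 ± 0.12, adjusted p = 0.0138, and 0.077 without WT replicate 1 or tcx5/6 replicate 2). RGF4, at 0 in WT, had 1.88 and 1.82 in tcx5/6 (adjusted p = 0.0207, and 0.057 and 0.055 without WT replicates 1 and 2).

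HA8 fell in SAM from 888 and 919 to 388 and 378 (-1.24 ± 0.19, adjusted p = 0.00265). AT3G42850, a mevalonate and galactokinase family gene, fell from 497 and 500 to 136 and 128 (-1.91 ± 0.29, adjusted p = 0.00277), and AT3G30730 from 7.12 and 8.91 to 0 in both libraries (adjusted p = 0.000862). AT3G30841 was again called lower (-0.45 ± 0.13, adjusted p = 0.0356), but not without WT replicate 1 (0.19), WT replicate 2 (0.076) or tcx5/6 replicate 1 (0.17). The pentatricopeptide repeat gene AT3G42630 was called lower by 0.35 ± 0.11 (adjusted p = 0.0492), a call lost without WT replicate 1 (0.24), tcx5/6 replicate 1 (0.24) or tcx5/6 replicate 2 (0.074). The photosynthesis genes summed to 573492 to 579016 in WT SAM and to 332499 to 343488 in tcx5/6 SAM, and WUS was at 141 and 164 against 49.1 and 46.5; their part in the SAM differences was not tested. Leaf and SAM shared 4 members called higher (AT3G30380, AT3G32920, AT3G42660 and AT3G42860) and 2 called lower (AT3G30841 and HA8). The share of all loci called in both tissues was not counted, so nothing is read from these counts. With single libraries left out, AT3G42860 and AT3G30841 lost their calls in both tissues and AT3G42660 its call in SAM.

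Between the tissues of WT plants, 18 of the 37 tested members (48.6%) were called higher in SAM than in leaf, beside 43.2% of all loci. Lower in SAM were 7 (18.9%), beside 35.6%. AT3G42725 was at 147 and 191 in SAM and at 2.17 and 4.33 in leaf (5.36 ± 0.36, adjusted p = 5.6e-06). AT3G42850 was at 497 and 500 against 10.7 and 11.99 (5.34 ± 0.29, adjusted p = 1.75e-06), AT3G30460 at 82.8 and 114 against 2.17 and 4.33 (4.58 ± 0.42, adjusted p = 3.49e-05) and AT3G42660 at 2187 and 2268 against 236 and 177 (3.44 ± 0.14, adjusted p = 4.25e-07). AT3G30730 was at 7.12 and 8.91 in SAM and at 0 in leaf (adjusted p = 0.000139). Each of these 5 had SAM libraries wholly above the leaf libraries.

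Lower in SAM were AT3G41762, at 2.55 and 8.32 against 116 and 117 (-4.35 ± 0.57, adjusted p = 0.00025), and the peroxidase family gene AT3G42570, at 3.69 and 0 against 16.1 and 24.9 (-3.28 ± 0.71, adjusted p = 0.00385). The amino acid transporter gene AT3G30390 was at 6364 and 6351 in SAM and at 25424 and 25649 in leaf (-2.01 ± 0.03, adjusted p = 5.65e-09). AT3G30841 fell by 0.70 ± 0.13 (adjusted p = 0.00152) and AT3G42050 by 0.53 ± 0.03 (adjusted p = 2.44e-06). DAYSLEEPER was higher in SAM, at 5431 and 5518 against 1266 and 1352 (2.06 ± 0.08, adjusted p = 2.42e-07).

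The tcx5/6 ddm1 group was set against ddm1 to follow tcx5/6 in that background. Of the 73 members 9 were called higher in tcx5/6 ddm1, beside 17.7% of all loci, and 17 lower, beside 21.6%, with a median log2 change of -0.32 against -0.02 for all loci. The chromosome 5 pericentromere gave 23 higher, 43 lower and a median of -0.20, and the chromosome 3 arms 879 higher, 1016 lower and -0.02. With the fit restricted to ddm1 and tcx5/6 ddm1 libraries 17 members were called. The share of all loci in that setting is not given, so nothing is read from that count. The calls of the main fit, 9 higher and 17 lower, hold 5 of the 27 silent loci. Those 5 met the threshold only through the ddm1 and tcx5/6 ddm1 libraries. Of the 41 members transcribed in WT, 7 (17.1%) were called higher and 14 (34.1%) lower. Of the 31 genes of the silencing list 21 were called higher, ROS1 and IBM1 among them, and 2 lower.

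The 27 silent loci were chosen by their values in these 4 libraries, so they are described with no test. Their summed signal was 2470 and 2557 in ddm1 against 1569 and 1600 in the triple mutant. The values of AT3G31350, an uncharacterized protein, were 37.3 and 50.9 in ddm1 and 3.31 and 5.48 in the triple mutant, and those of AT3G42148, also uncharacterized, 15.8 and 9.88 against 1.52 and 0. The 5 strongest loci, whose values stand above, each had a lower mean in the triple mutant.

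Neighbouring silent loci 0.49 kb apart had values in the other order. AT3G32190, a myosin heavy chain-like locus, had 1.39 and 10.5 in ddm1 and 23.6 and 39.6 in the triple mutant. AT3G32180, an uncharacterized protein, had 6.97 and 3.21 against 21.1 and 19.1. For both loci each triple mutant library lay above each ddm1 library.

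**Figure D5:**
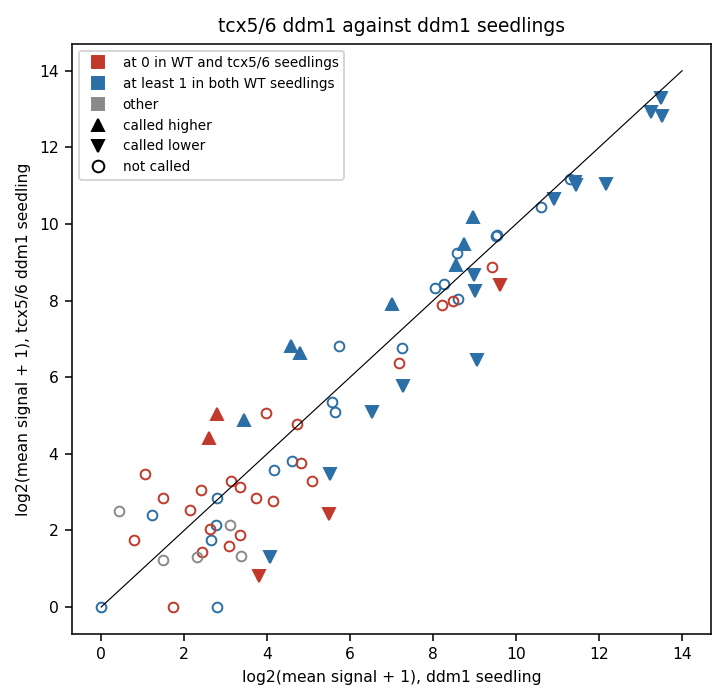
Mean log2-scale signal, log2(mean + 1), of the 73 members in ddm1 (horizontal) and tcx5/6 ddm1 (vertical) seedlings, with the line of equality. Triangles mark members called higher (9) or lower (17) in tcx5/6 ddm1, open circles the 47 not called (5 of the triangles are silent loci chosen by these libraries), and colours the classes of the plot by distance.

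Among the transcribed members, AT3G32920 rose from 21.9 and 23.6 in ddm1 to 115 and 108 in tcx5/6 ddm1 (2.24 ± 0.31, adjusted p = 0.000791) and AT3G42660 from 482 and 518 to 1145 and 1181 (1.22 ± 0.09, adjusted p = 4.61e-05). AT3G42180, an exostosin family gene of cell wall glycosylation, rose from 20.6 and 33.2 to 74.5 and 123 (1.83 ± 0.39, adjusted p = 0.00656). AT3G42850 went from 13.2 and 6.48 to 31.1 and 26.2 (1.52 ± 0.45, adjusted p = 0.0276), a call lost without ddm1 replicate 2 (0.095), tcx5/6 ddm1 replicate 1 (0.088) or tcx5/6 ddm1 replicate 2 (0.054).

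The falls included both terpenoid genes. AT3G32030 fell from 615 and 449 to 73.1 and 99.6 (-2.61 ± 0.58, adjusted p = 0.00822) and AT3G32040 from 178 and 129 to 34.6 and 73.4 (-1.57 ± 0.38, adjusted p = 0.0117, and 0.058 without ddm1 replicate 1). ERD5 fell from 4045 and 5069 to 2439 and 1778 (-1.12 ± 0.17, adjusted p = 0.00147). Further calls were less stable: bZIP42 (AT3G30530), a basic leucine-zipper gene (-2.89 ± 0.77, adjusted p = 0.0181), was not called without ddm1 replicate 2 (0.1) or tcx5/6 ddm1 replicate 1 (0.084). ABCG38 (AT3G30842), an ABC transporter gene (-1.87 ± 0.56, adjusted p = 0.0283), was not called without ddm1 replicate 2 (0.12), tcx5/6 ddm1 replicate 1 (0.085) or tcx5/6 ddm1 replicate 2 (0.068). AT3G42800 (-1.63 ± 0.49, adjusted p = 0.0282) was not called without ddm1 replicate 2 (0.13) or tcx5/6 ddm1 replicate 2 (0.089). The photosynthesis genes summed to 425142 to 531686 in tcx5/6 ddm1 against 837906 to 847372 in ddm1, and their part was not tested.

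The libraries labelled tcx5/6 ddm1 were last set against tcx5/6. There 29 members were called higher, beside 25.7% of all loci, and 14 lower, beside 26.0%, and nothing is read from these counts because the rule used the same libraries. The count of 43 fell to 28 without tcx5/6 replicate 1. AT3G30770 was at 3.84 and 0.202 in tcx5/6 and at 284 and 240 in the triple mutant, and AT3G33528 at 0.104 and 2.77 against 324 and 370 (7.41 ± 0.68, adjusted p = 4.76e-05). UMAMIT32 fell from 83.0 and 103 to 14.5 and 7.41 (-3.03 ± 0.55, adjusted p = 0.00197), AT3G30460 from 29.5 and 20.7 to 4.32 and 2.48 (-2.58 ± 0.52, adjusted p = 0.00345) and RGF4 from 77.7 and 70.7 to 14.1 and 11.8 (-2.43 ± 0.39, adjusted p = 0.000994). MYB121 was at 5.23 and 1.89 in tcx5/6 and at 0 in both tcx5/6 ddm1 libraries (adjusted p = 0.016, and 0.16 without tcx5/6 replicate 1). The call on bZIP42 (-2.49 ± 0.77, adjusted p = 0.0255) was lost without tcx5/6 ddm1 replicate 1 (0.13), tcx5/6 replicate 1 (0.092) or tcx5/6 replicate 2 (0.11).

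An interaction term compared the tcx5/6 difference between the libraries labelled ddm1 and those not. It was called positive for 3 members, beside 5.0% of all loci, and negative for 3, beside 9.51%. The lowest adjusted p of the 6 was that of ERD5, at -1.99 ± 0.25 (adjusted p = 0.00225): tcx5/6 came with a rise of 0.87 over WT and a fall of 1.12 from ddm1. AT3G32940 had 1.03 ± 0.15 (adjusted p = 0.00409). Outside ddm1 it went from 850 and 836 to 659 and 707 in tcx5/6, and in ddm1 from 460 and 397 up to 672 and 748. The calls on AT3G32980 (-0.67), AT3G42180 (2.17) and AT3G42660 (0.52) were each lost without WT replicate 1, tcx5/6 replicate 1 or tcx5/6 replicate 2. Each was also lost without some other single libraries. AT3G31350 is at 0 in WT and tcx5/6 by definition of its class, so its value (-3.08) only repeats the difference between tcx5/6 ddm1 and ddm1 and tests nothing more. Without WT replicate 1, tcx5/6 replicate 1 or tcx5/6 replicate 2 the count of 6 was 2, without WT replicate 2 it was 3, and without tcx5/6 ddm1 replicate 1 it was 10.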

How the data were processed

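The 2 tables deposited by the authors hold signal per locus for 16 libraries. From the values, which are fractional, never negative and on uneven steps, they were read as counts adjusted to a common library size and not divided by length; no source used here states the adjustment, and whole reads could not be recovered. The submitters' processing notes name HISAT2, edgeR and TAIR10; the sources used here state no counting tool, annotation or strand setting. Totals are adjusted and not sequencing depth, so no counting intervals are given. A value smaller than 1e-06 was taken as 0.

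The 2 tables were fitted separately with limma 3.58.1 (trend method, R 4.3.3) on log2(value + 1) over loci reaching 1 in 2 or more libraries; the model had a mean for every group and used the 8 libraries of a table. Because of the added 1, log2 changes understate those of low loci. P-values were adjusted by Benjamini-Hochberg over all loci tested and called under 0.05. The script was tested on simulated data. Repeated exon words (31 bases), 250-base upstream windows and coordinates came from RefSeq TAIR10.1, with Python 3.11.15 and matplotlib 3.10.9. Named loci followed fixed size rules per comparison: up to 12 rises and 8 falls for ddm1 against WT, fewer for the others, the 8 highest in WT, those at the threshold and 12 host genes, of which AT3G42880 and AT3G42960 were not members. Members and lists were chosen with earlier results of these data known. Comparisons that share a group are not independent.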

Additional observations from a re-analysis of the deposited data

Results flagged for a closer look

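In seedlings limma's interaction term between tcx5/6 and ddm1 passed the threshold at 6 members: ERD5 (AT3G30775, -1.99 on the log2 scale), AT3G31350 (-3.08), AT3G32940 (1.03), AT3G32980 (-0.668), AT3G42180 (2.17) and AT3G42660 (0.521). The calls on AT3G31350, AT3G32980, AT3G42180 and AT3G42660 were each lost without WT replicate 1, tcx5/6 replicate 1 or tcx5/6 replicate 2. Each was also lost without some other single libraries. AT3G31350 is at 0 in WT and tcx5/6 by definition of its class, so its value repeats the difference between tcx5/6 ddm1 and ddm1 in the libraries that chose it and is no test of dependence.

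At 2 members both tcx5/6 libraries lay on one side of WT in leaf and on the other in SAM. The difference between the tissues was not tested, and neither SAM difference passed the threshold. ERD5 rose by 0.615 in leaf, and its SAM difference was -0.146 (limma, adjusted p = 0.0801). The peroxidase gene AT3G32980 had a difference of -1.42 in leaf, a call lost without WT leaf replicate 2 (adjusted p = 0.058), and of 0.849 in SAM (adjusted p = 0.108), where it was at 129 and 168 in WT and at 234 and 303 in tcx5/6.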

How the results depend on the processing

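Of 829 recomputed log2 changes of the named loci, 723 kept their call, 106 lost it and 0 changed sign. Leaving out a library accounted for 71 of the lost calls and testing every locus without a filter for 18. A pseudocount of 0.1 and rescaling by the median of ratios kept every member count within 1.5 times. Without a filter 3 members were called for tcx5/6 against WT in seedlings and 9 in SAM. With only the compared groups in the fit there were 13 for tcx5/6 against WT seedlings and 17 for tcx5/6 ddm1 against ddm1. With a log2 change of at least 1 there were 2 for tcx5/6 against WT in seedlings, 15 for tcx5/6 ddm1 against ddm1, 6 in leaf and 5 in SAM; this alternative only removes small changes. The fit with only the compared groups was not run for the interaction, which uses all 4 groups. The shares of all loci in these alternative settings are not given, so the counts show only how far the number of calls moves. Leaving out 1 library gave 36 to 47 members for ddm1 against WT, 3 to 4 for tcx5/6 against WT seedlings, 22 to 25 for tcx5/6 ddm1 against ddm1, 28 to 39 for tcx5/6 ddm1 against tcx5/6, 2 to 10 for the interaction, 9 to 14 in leaf, 5 to 9 in SAM and 22 to 23 for WT SAM against WT leaf; fewer libraries were in each fit. For tcx5/6 against WT seedlings the lowest, 3, came without WT replicate 2 or tcx5/6 replicate 1.

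Replicate numbers did not pair the libraries: the correlation of replicate differences between groups ran from -0.08 to 0.10. With the number as a block, 47 members were called for ddm1 against WT, 6 for tcx5/6 against WT seedlings, 26 for tcx5/6 ddm1 against ddm1, 40 for tcx5/6 ddm1 against tcx5/6, 7 for the interaction, 14 in leaf, 12 in SAM and 24 for WT SAM against WT leaf.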
